A study of Arabidopsis thaliana with 12 samples.

Results

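The genes described here were those with a lower signal after brassinosteroid treatment in each of 3 Arabidopsis thaliana genotypes. They were chosen from log2 group means of 2 arrays each, as probe sets whose mean with brassinosteroid was lower than the mean without it by at least 0.8 in axr2, in msg2 and in wild type, and whose mean without it was at least 7 in all 3. Of 22746 gene probe sets 88 met these thresholds. A fixed set of exceptions, in which the expansins EXPA7 and EXPA18, GH9C1, the lateral root regulators LBD16 and LBD29 and several lectin, LEA, SWEET and UGT genes were listed, removed 6 of them. The remaining 82 probe sets are called members. Of these 33 were paired with exactly 1 gene in the probe table used, 5 with several genes and 44 with none, and only the 33 are named by gene. Because the responses to brassinosteroid chose the members, they are given below as a description. Counts of limma calls on these responses are printed once, and are not used as a test.

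The 12 Affymetrix ATH1 arrays held RNA from whole dark-grown seedlings, all of ecotype Columbia. The 6 groups of 2 arrays were axr2 with 100 nM 24-epibrassinolide (24-eBL, a brassinosteroid), mock-treated axr2, msg2 with 24-eBL, mock-treated msg2, wild type with 24-eBL and mock-treated wild type. Seedlings of every group had 8 h of light and then 4 days of darkness, with 24-eBL in the medium or without it during the dark days, and all were 4 days old. The labels give the mutants by name only and do not state an allele. As background, msg2 and axr2 carry dominant, stabilising point mutations in 2 Aux/IAA repressors of auxin response, which act on the protein, so the RNA level of those genes is no check of genotype.

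Brassinosteroids are plant steroid hormones. They bind a receptor kinase at the cell surface, and the signal ends at transcription factors of the BZR1 family, which switch many genes off as well as on. Brassinosteroid and auxin act together on cell elongation in dark-grown stems, and in roots both hormones affect root hairs and branching. Many genes of root surface cells encode cell wall proteins, among them peroxidases and extensins that cross-link the wall and enzymes that modify pectin.

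The submitters describe the 2 arrays of a group as biological replicates, without saying which cultures they came from, so spreads and p-values refer to these arrays, and their number limits the precision. The 2% trimmed mean of the linear signal was 500.05 to 500.06 on every array. Pearson r between the 2 arrays of a group was 0.968 to 0.979 over the tested probe sets. Tests covered the 15025 probe sets above the 40th percentile of an array's signal on at least 2 arrays, and all 82 members were among them. A value at or below that percentile (5.99 to 6.34 on the log2 scale) is called dim below. Where the lower group was dim, its values were raised to the percentile and the fold is a lower bound, written "at least".

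The members lost a similar amount of signal in the 3 genotypes at the median, while single genes differed widely. The median response, 24-eBL minus mock on the log2 scale, was -1.58 in axr2, with a range of -3.48 to -0.81. In msg2 it was -1.55, with a range of -4.77 to -0.81, and in wild type -1.48, with a range of -5.47 to -0.81. Over all tested probe sets the median responses were -0.03, -0.01 and 0.04 in axr2, msg2 and wild type. In a seedling extract, fewer cells of a type and less RNA per cell cannot be told apart.

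On single arrays, the median log2 signal of the members was 7.60 and 7.13 in axr2 with 24-eBL, against 9.14 and 8.79 in mock-treated axr2. In msg2 it was 7.33 and 7.46 with 24-eBL and 9.19 and 9.13 in mock. In wild type it was 7.43 and 7.39 with 24-eBL and 8.82 and 9.05 in mock. All 6 arrays with 24-eBL lay below all 6 mock arrays, while the median of all tested probe sets stayed between 8.28 and 8.42 on the 12 arrays. Dim members numbered 15 and 20 on the axr2 arrays with 24-eBL, 6 and 12 on those of msg2 and 19 and 14 on those of wild type, and 0 on any mock array.

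Both arrays with 24-eBL were below both mock arrays for 81 members in axr2, where 25.2% of all tested probe sets had that order. The count was 82 in msg2, against 25.7% of tested probe sets, and 82 in wild type, against 20.6%. All 3 genotypes had this order for 81 members, against 3.41% of tested probe sets, and the exception was a probe set with no gene in the table. At an adjusted p under 0.05 in limma, 64 members were called lower in axr2 (1.72% of tested probe sets were), 75 in msg2 (2.4%) and 71 in wild type (2.47%). The rule chose the members by a fall in these same contrasts. The array orders and the calls therefore largely follow from the choice. They are no test of the members, and nothing is read from their distance to the shares of all tested probe sets.

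**Figure D1:**
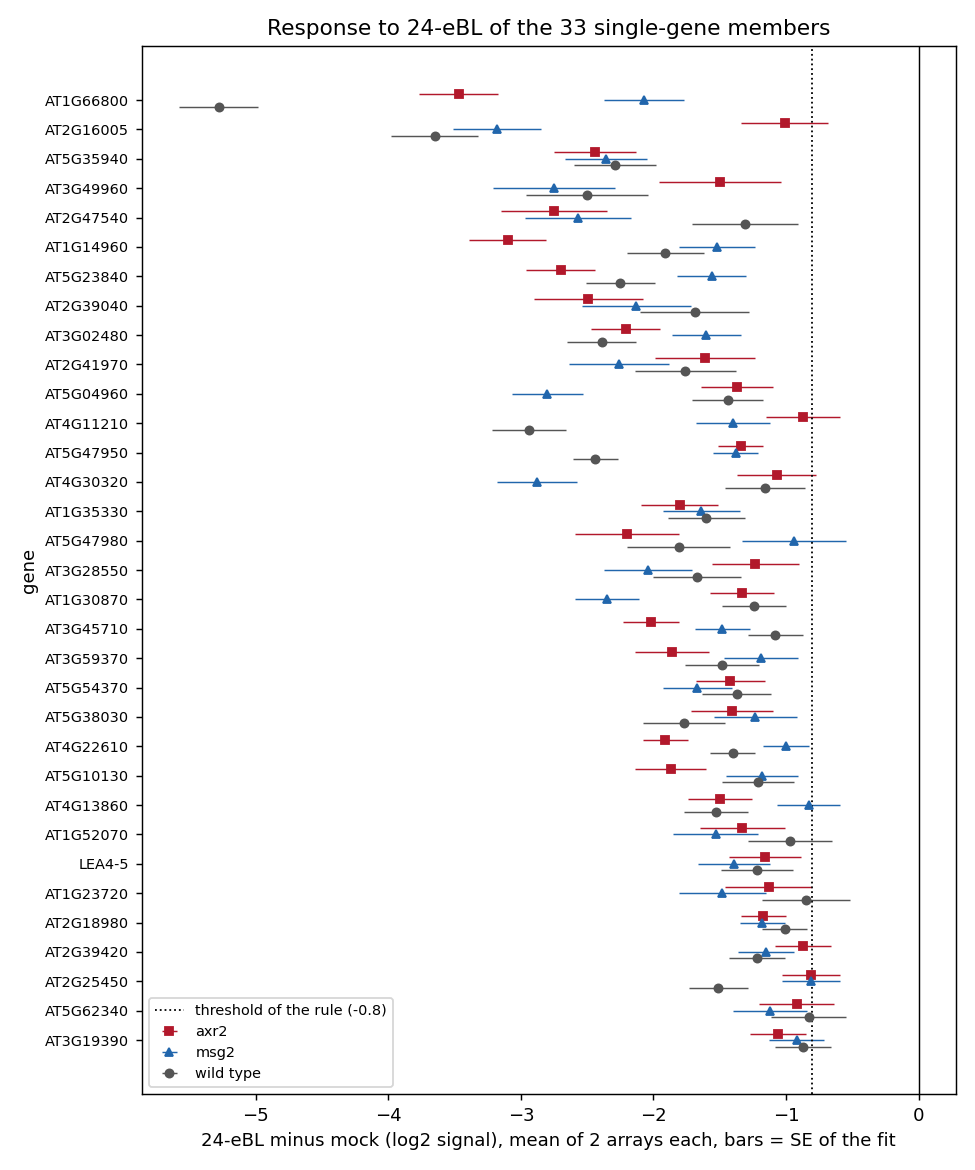
Response to 24-eBL of the 33 members paired with 1 gene, as 24-eBL minus mock in log2 signal (mean of 2 arrays each, bars SE of the fit), for axr2 (squares), msg2 (triangles) and wild type (circles), ordered by the mean over the genotypes. All points lie at or left of the dotted threshold at -0.8, and the genotypes are far apart for AT2G16005, at -1.01 in axr2, -3.18 in msg2 and -3.65 in wild type, while points that rest on dim values, such as -5.28 for AT1G66800 in wild type, have no measured size.

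Genes of cell wall and secreted proteins made up 12 of the 33 named members, with median responses of -1.28 in axr2, -2.08 in msg2 and -1.27 in wild type. Their families are given here and below as background and were not read from the probe table, and the grouping was made with the values known. They included class III peroxidases, proline-rich extensins, proteins of the Ole e 1 family and enzymes or inhibitors of pectin de-esterification.

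AT3G49960, AT2G39040, AT1G30870 and AT2G18980 encode class III peroxidases, secreted enzymes that use hydrogen peroxide and can stiffen the wall. AT1G30870 had log2 signals of 8.51 and 8.11 in axr2 with 24-eBL, against 9.85 and 9.43 in mock-treated axr2. In msg2 its signals were 7.30 and 7.45 with 24-eBL and 9.94 and 9.50 in mock. In wild type they were 7.42 and 8.08 with 24-eBL and 8.85 and 9.12 in mock. The arrays did not overlap between treatments in any genotype, and the signal with 24-eBL was 2.51-fold lower in axr2, 5.09-fold lower in msg2 and 2.36-fold lower in wild type.

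AT2G18980 was the most even peroxidase across genotypes. Its log2 signals were 10.33 and 10.08 with 24-eBL and 11.61 and 11.13 in mock in axr2, 10.07 and 9.90 with 24-eBL and 11.20 and 11.13 in mock in msg2, and 10.06 and 10.32 with 24-eBL and 11.21 and 11.19 in mock in wild type. Its responses were -1.17, -1.18 and -1.01 in axr2, msg2 and wild type, each with an SE of 0.17. AT3G49960 had at least 1 dim array with 24-eBL in every genotype, and was at least 2.65-fold lower in axr2, 5.05-fold in msg2 and 2.50-fold in wild type. AT2G39040 had responses of -2.49, -2.13 and -1.69 in axr2, msg2 and wild type, with an SE of 0.41. It was dim on 1 axr2 array with 24-eBL. With that value raised to the percentile, the axr2 response was -1.78 and the most negative was in msg2.

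AT3G28550 and AT1G23720 encode proline-rich extensins, structural wall proteins. AT3G28550 had responses of -1.23, -2.04 and -1.67 in axr2, msg2 and wild type, and AT1G23720 of -1.13, -1.48 and -0.85, each with an SE of 0.33. AT2G47540 and AT5G10130 encode secreted proteins of the Ole e 1 family. AT2G47540 had dim values with 24-eBL in all 3 genotypes and was at least 2.15-fold lower in axr2, 3.21-fold in msg2 and 2.03-fold in wild type. AT5G10130 had responses of -1.87, -1.18 and -1.21.

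AT5G04960 encodes a pectin methylesterase, an enzyme that removes methyl groups from pectin. Its log2 signals were 7.12 and 6.41 with 24-eBL and 8.22 and 8.07 in mock in axr2. In msg2 they were 6.25 and 6.15 with 24-eBL and 8.94 and 9.07 in mock, and in wild type 6.07 and 6.58 with 24-eBL and 7.54 and 7.99 in mock. The msg2 mock arrays were the highest of the 12, and the response of -2.80 ± 0.27 (SE) in msg2 compared with -1.37 in axr2 and -1.44 in wild type. AT4G30320, of the CAP family of secreted proteins, had a like order, with -2.88 ± 0.30 (SE) in msg2, -1.07 in axr2 and -1.16 in wild type. AT5G62340, a pectin methylesterase inhibitor, had responses of -0.92, -1.12 and -0.83 in axr2, msg2 and wild type.

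AT4G11210 encodes a dirigent protein, a family that guides the coupling of phenolic units such as lignan precursors. The log2 signals of AT4G11210 were 7.86 and 7.0 with 24-eBL and 8.25 and 8.34 in mock in axr2, and 7.28 and 6.68 with 24-eBL and 8.45 and 8.31 in mock in msg2. In wild type they were 5.81 and 5.67 with 24-eBL, both dim, and 8.48 and 8.87 in mock. Mock signals of the 3 genotypes were close together, and the wild-type arrays with 24-eBL were the lowest of the 12. The response was -0.87 in axr2, -1.40 in msg2 and -2.94 in wild type, each with an SE of 0.28.

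Of the 12 wall and secreted-protein genes named above, 8 had their most negative response in msg2, 3 in axr2 and 1 in wild type. With dim values raised to the percentile these counts were 10, 1 and 1, and the median responses -1.20 in axr2, -1.86 in msg2 and -1.22 in wild type. Of all 33 single-gene members, 12 had it in axr2, 12 in msg2 and 9 in wild type, or 8, 15 and 10 with dim values raised. The wall group was drawn up with these values known, so the split is a description.

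Of 6 root hair markers listed, EXPA7 and EXPA18 had a single-gene probe set, and the other 4 were not analysed here. Both met the thresholds themselves and were removed as exceptions, so that they were lower is no independent result. In limma both were called lower in msg2 and in wild type, and EXPA18 alone in axr2, where EXPA7 had a response of -1.40 (adjusted p = 0.12). The log2 of their summed signal was 7.31 to 8.12 with 24-eBL and 9.17 to 9.29 in mock in axr2, 6.65 to 7.08 with 24-eBL and 9.48 to 9.88 in mock in msg2, and 7.0 to 7.11 with 24-eBL and 8.95 to 9.19 in mock in wild type. The markers of lateral root founder cells LBD16 and LBD29, 2 of 3 listed, summed to 7.10 to 7.11 with 24-eBL and 8.18 to 8.52 in mock in axr2, 7.02 to 7.47 and 8.81 to 8.83 in msg2, and 7.17 to 7.40 and 7.77 to 8.22 in wild type. LBD16 was called lower in axr2 and msg2, and LBD29 in no genotype. The part of these cell types in the members' response was not tested. No marker of endodermis, root meristem, xylem, phloem, guard cells or leaf cells was tested.

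Families of lectins, lipid-binding proteins and LEA proteins held 9 members, with median responses of -1.91 in axr2, -1.56 in msg2 and -1.91 in wild type, the last -1.40 with dim values raised. AT5G35940 and AT1G52070 encode jacalin-type lectins, which bind sugars. AT5G35940 had log2 signals of 5.77 and 5.39 with 24-eBL and 8.20 and 7.84 in mock in axr2, and 6.07 and 5.69 with 24-eBL and 8.20 and 8.28 in mock in msg2. In wild type they were 4.82 and 4.67 with 24-eBL and 6.83 and 7.23 in mock. All 3 genotypes held dim values with 24-eBL, and the gene was at least 3.58-fold lower in axr2, 4.47-fold in msg2 and 1.90-fold in wild type, where the mock signals were the lowest. AT1G52070 had responses of -1.33, -1.53 and -0.97.

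AT2G16005 and AT5G23840 encode proteins with the MD-2-related lipid-recognition fold. AT2G16005 had log2 signals of 9.0 and 8.41 with 24-eBL and 10.36 and 9.09 in mock in axr2. In msg2 they were 6.64 and 5.81 with 24-eBL and 9.38 and 9.43 in mock, and in wild type 5.48 and 5.67 with 24-eBL and 9.19 and 9.25 in mock. The arrays with 24-eBL were clearly higher in axr2 than in the other 2 genotypes, and the gene was 2.02-fold lower in axr2, at least 8.20-fold lower in msg2 and at least 8.64-fold lower in wild type. AT5G23840 had responses of -2.70, -1.56 and -2.25 in axr2, msg2 and wild type, with an SE of 0.26.

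AT1G14960 encodes a protein of the Bet v 1-like family, small proteins with a cavity for hydrophobic molecules. Its log2 signals were 8.00 and 7.44 with 24-eBL and 11.32 and 10.33 in mock in axr2, and 9.18 and 8.98 with 24-eBL and 10.71 and 10.49 in mock in msg2. In wild type they were 7.48 and 7.53 with 24-eBL and 8.96 and 9.88 in mock. Both mutants were above wild type in mock, and msg2 was above the other 2 genotypes with 24-eBL. The signal with 24-eBL was 8.59-fold lower in axr2, 2.88-fold lower in msg2 and 3.77-fold lower in wild type.

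AT4G22610, a lipid-transfer-like protein, had responses of -1.91, -1.0 and -1.40 in axr2, msg2 and wild type, each with an SE of 0.17. LEA proteins accumulate in drying seeds and stressed tissue, and 3 members are of LEA or LEA-like families. AT3G02480 had responses of -2.21, -1.60 and -2.39, LEA4-5 (AT5G06760) of -1.16, -1.39 and -1.22 and AT5G54370 of -1.42, -1.67 and -1.37 in axr2, msg2 and wild type. The 3 genotypes lay within 0.30 of each other for LEA4-5 and AT5G54370.

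Enzymes of specialised and lipid metabolism were 5 members, with median responses of -1.34 in axr2, -1.15 in msg2 and -1.81 in wild type, and 4 of the 5 had their most negative response in wild type, or 3 of 5 with dim values raised. AT1G66800 encodes a protein like the NAD(P)-binding reductases of phenylpropanoid metabolism. Its log2 signals were 5.96 and 5.79 with 24-eBL, both dim, and 9.54 and 9.16 in mock in axr2, and 6.64 and 7.33 with 24-eBL and 9.18 and 8.93 in mock in msg2. In wild type they were 3.36 and 3.10 with 24-eBL, both dim, and 8.07 and 8.94 in mock. With 24-eBL the msg2 arrays were above the percentile and those of axr2 and wild type below it, so these 2 have no order, and the gene was at least 8.99-fold lower in axr2, 4.20-fold lower in msg2 and at least 5.27-fold lower in wild type.

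AT5G47950 and AT5G47980 encode BAHD acyltransferases and, as background, belong to the root gene cluster that makes the triterpene thalianol. In the gene order of assembly TAIR10.1, 2 protein-coding genes lie between them. AT5G47950 had log2 signals of 8.64 and 8.33 with 24-eBL and 9.95 and 9.70 in mock in axr2, and 8.93 and 8.99 with 24-eBL and 10.33 and 10.34 in mock in msg2. In wild type they were 7.59 and 7.83 with 24-eBL and 10.09 and 10.22 in mock. Mock signals were close together and the wild-type arrays with 24-eBL were the lowest, with responses of -1.34 in axr2, -1.38 in msg2 and -2.44 in wild type, each with an SE of 0.17. AT5G47980 had responses of -2.20, -0.94 and -1.81 in axr2, msg2 and wild type, with an SE of 0.39, and its 2 axr2 arrays differed by over 1 in both treatments.

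AT2G25450 encodes a 2-oxoglutarate-dependent dioxygenase that hydroxylates the side chain of glucosinolates, the defence compounds of this plant family. The dioxygenase gene had log2 signals of 8.59 and 9.07 with 24-eBL and 9.63 and 9.65 in mock in axr2, 9.22 and 9.58 with 24-eBL and 10.21 and 10.19 in mock in msg2, and 10.18 and 9.41 with 24-eBL and 11.38 and 11.25 in mock in wild type. The mock signals did not overlap between genotypes. Its responses of -0.81, -0.81 and -1.51 in axr2, msg2 and wild type (SE 0.22) put it just inside the threshold. AT2G39420, an alpha/beta hydrolase, had -0.87, -1.15 and -1.22.

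The remaining 7 named members are of transport, signalling and other families, with median responses of -1.61 in axr2, -1.23 in msg2 and -1.53 in wild type. AT3G45710 encodes a transporter of the NRT1/PTR family, which carries nitrate, peptides and other small molecules. Its log2 signals were 8.28 and 8.61 with 24-eBL and 10.84 and 10.10 in mock in axr2, 8.96 and 9.07 with 24-eBL and 10.59 and 10.39 in mock in msg2, and 8.83 and 8.76 with 24-eBL and 9.72 and 10.03 in mock in wild type. No arrays overlapped between treatments, and the gene was 4.07-fold lower in axr2, 2.78-fold lower in msg2 and 2.12-fold lower in wild type. AT5G38030, a MATE family exporter, had responses of -1.41, -1.23 and -1.77 in axr2, msg2 and wild type.

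AT2G41970 encodes a receptor-like cytoplasmic kinase. It was dim on all 6 arrays with 24-eBL and at least 1.88-fold lower in axr2, 2.23-fold in msg2 and 2.24-fold in wild type. AT1G35330, a RING-type protein, the kind that attaches ubiquitin, had responses of -1.80, -1.64 and -1.60. It held dim values with 24-eBL in every genotype. Its fall was at least 2.63-fold in axr2, 2.99-fold in msg2 and 2.58-fold in wild type. AT3G19390, a papain-type cysteine protease, had -1.06, -0.92 and -0.87, and AT4G13860, a glycine-rich RNA-binding protein, had -1.5, -0.83 and -1.53. AT3G59370 had -1.86, -1.19 and -1.48 in axr2, msg2 and wild type. Both of its axr2 arrays with 24-eBL were dim. With these raised the axr2 response was -1.21, and the most negative was in wild type.

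**Figure D2:**
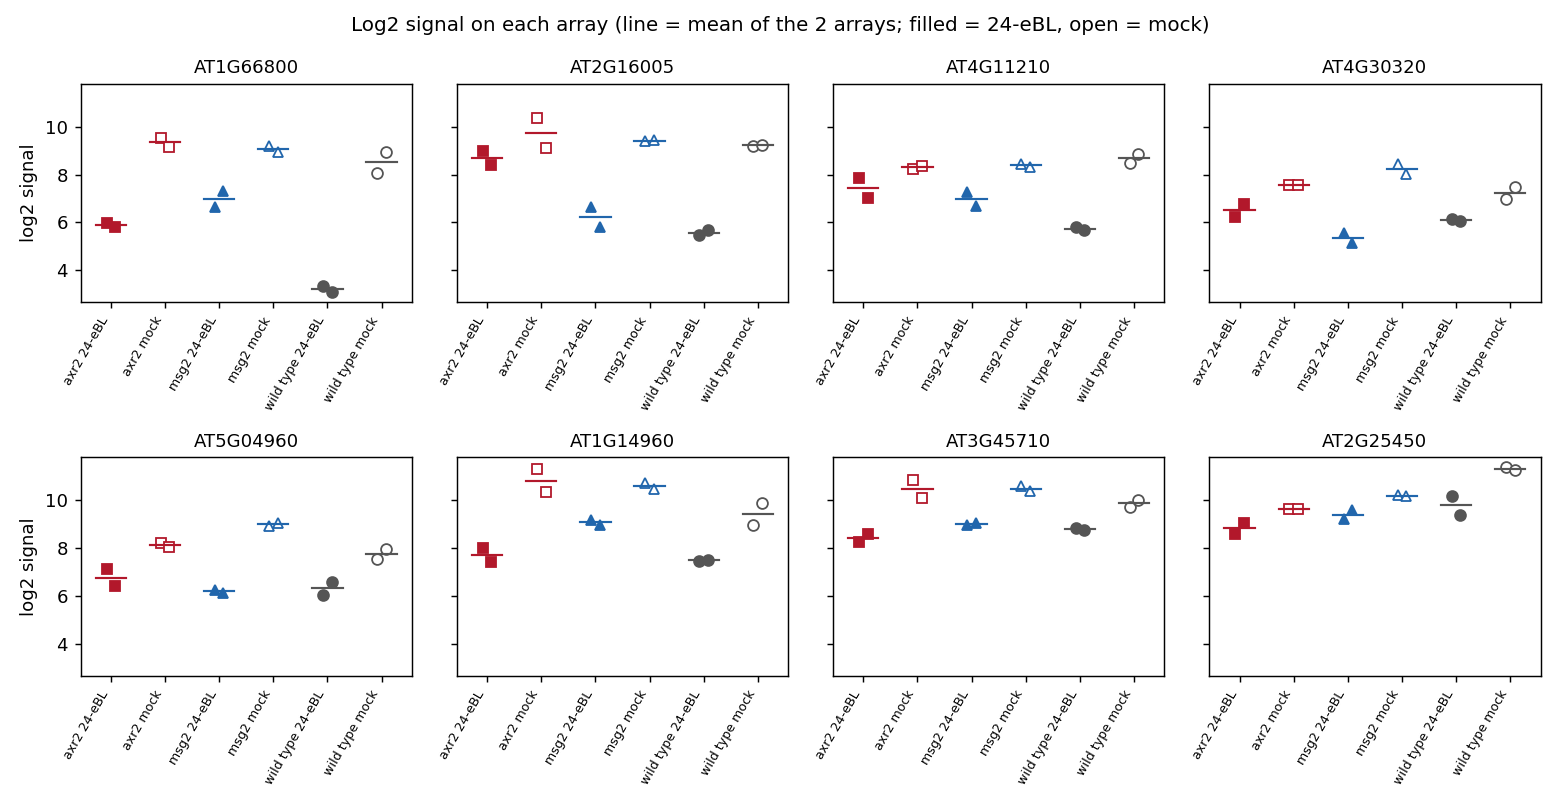
Log2 signal on each array for 8 members (line, mean of the 2 arrays of a group; filled, 24-eBL; open, mock), with axr2, msg2 and wild type from left to right. In AT2G16005 the axr2 arrays with 24-eBL (9.0 and 8.41) lie above those of msg2 and wild type, and in AT2G25450 the wild-type mock arrays (11.38 and 11.25) lie above both mutants.

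Among the 44 members with no gene in the table, 1 probe set had the deepest wild-type response of all members. It had log2 signals of 7.89 and 7.54 with 24-eBL and 10.03 and 8.94 in mock in axr2, 6.38 and 4.13 with 24-eBL and 10.17 and 9.88 in mock in msg2, and 4.01 and 5.47 with 24-eBL and 10.07 and 10.34 in mock in wild type. The treatments did not overlap in any genotype, and the signal with 24-eBL was 3.41-fold lower in axr2, at least 13.8-fold lower in msg2 and at least 17.1-fold lower in wild type. Another unnamed probe set had the reverse order, at least 3.99-fold lower in axr2, 2.15-fold lower in msg2 and 1.93-fold lower in wild type.

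Near the threshold, the members closest inside were AT2G25450, a probe set of several genes with -0.81 in axr2, -0.97 in msg2 and -1.48 in wild type, and an unnamed probe set with -1.05, -0.82 and -0.81. Closest outside were AT5G23830, with -1.38, -0.78 and -1.16 in axr2, msg2 and wild type, and 2 probe sets with no gene in the table. AT5G23830 is of the same MD-2-related family as the member AT5G23840 and lies next to it in the gene order. AT3G45700 lies next to the member AT3G45710, is of the same transporter family, and had -1.17, -0.64 and -0.85.

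The sizes of the response in the 3 genotypes were only loosely related across members. The 3 responses of a member spanned a median of 0.89 on the log2 scale, and for 17 members they lay within 0.5 of each other. The deepest of the 3 was in axr2 for 33 members, in msg2 for 24 and in wild type for 25. With dim values raised these counts were 24, 31 and 27, so the split depends on signal near background. Across the 82 members Pearson r was 0.38 between axr2 and wild-type responses, 0.44 between msg2 and wild-type responses and 0.20 between axr2 and msg2 responses. The members share their arrays and a threshold cuts all 3 axes, so these values are a description.

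The median difference of the response was -0.09 for axr2 minus wild type and -0.04 for msg2 minus wild type. The axr2 response was more than 1 log2 unit shallower than that of wild type for 10 members and more than 1 deeper for 7. The msg2 response was more than 1 shallower for 12 members and more than 1 deeper for 10. With dim values raised the counts were 8 and 6 for axr2 and 10 and 10 for msg2. The named genes over 1 unit from wild type in axr2 also with dim values raised were AT2G16005, AT4G11210 and AT5G47950, which were shallower, and AT1G14960, which was deeper. In msg2 they were AT4G11210 and AT5G47950, which were shallower, and AT5G04960, AT4G30320 and AT1G30870, which were deeper. The rule bounds each response, so the differences have no test.

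**Figure D3:**
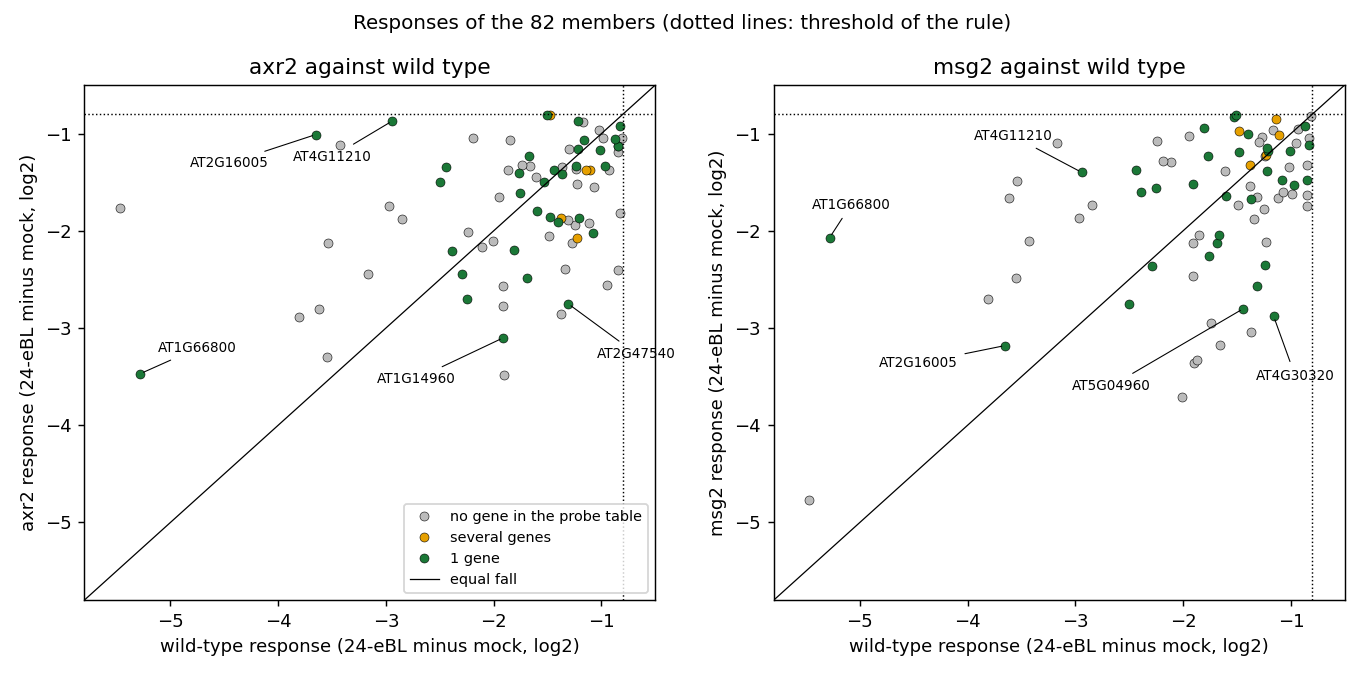
Response of the 82 members in axr2 (left) and msg2 (right) against the response in wild type, all as 24-eBL minus mock in log2 signal, coloured by how many genes the probe table pairs with the probe set. Points scatter to both sides of the line of equal response, with Pearson r of 0.38 for axr2 and 0.44 for msg2.

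Whether the mutants differed from wild type within one treatment is a question the rule did not ask, although the same arrays entered it and the mock means entered its floor. These contrasts were tested in limma over all 15025 tested probe sets with Benjamini-Hochberg adjustment. The axr2 and msg2 comparisons share the wild-type arrays.

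In mock-treated seedlings, axr2 differed from wild type for 31 of 82 members (37.8%), 17 higher and 14 lower. Of all tested probe sets 35.5% were called, 20.5% higher and 15.0% lower, and 38.3% of those with 3 mock means of at least 7, so the members' share was near the background. With arrays centred on their medians the calls were 28, with 12 higher and 16 lower, against 34.0% of tested probe sets. Without wild-type mock replicate 1 they were 20, against 23.9% of tested probe sets. The median difference was 0.07 over the members and 0.13 over all tested probe sets.

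AT2G25450 fell to 9.63 and 9.65 in mock-treated axr2, against 11.38 and 11.25 in wild type, 3.19-fold lower (log2 -1.67 ± 0.22 SE, limma adjusted p = 1.5e-05). AT1G14960 was 2.65-fold higher in axr2, with signals of 11.32 and 10.33 against 8.96 and 9.88 in wild type (limma adjusted p = 0.0012). Both calls held without any single array. The arrays of the 2 genotypes did not overlap for either gene.

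The other calls were lost on leaving out single arrays. AT5G47980 (2.60-fold), AT5G35940 (1.99-fold) and AT3G45710 (1.51-fold) were higher in axr2, and AT5G62340 (1.85-fold) was lower, with limma adjusted p of 0.0099, 0.019, 0.038 and 0.018. These 4 calls were lost without wild-type mock replicate 1 and without axr2 mock replicate 1, with adjusted p up to 0.21, 0.15, 0.47 and 0.15. AT3G02480, a LEA gene, was 1.82-fold lower (adjusted p = 0.014), a call lost without replicate 2 of either group (up to 0.15).

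AT1G66800 (1.79-fold) and AT1G30870 (1.57-fold) were higher in axr2 mock, and LEA4-5 (1.67-fold) and AT4G13860 (1.61-fold) lower, with limma adjusted p of 0.039, 0.042, 0.039 and 0.031. These calls were lost in 5, 3, 5 and 3 of 12 fits that each left out 1 array, in each case with axr2 mock replicate 1 among the arrays left out, and adjusted p reached 0.43, 0.27, 0.34 and 0.55. All 11 named calls had arrays that did not overlap between axr2 and wild type. Lack of overlap was part of the rule for naming such calls, so it adds no support to them or to those in the comparisons below.

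In mock-treated msg2, 16 members (19.5%) differed from wild type, 13 higher and 3 lower, against 4.12% of tested probe sets (2.12% higher, 2.0% lower) and 4.52% of those with the same floor. The median difference was 0.27 over the members and 0.05 over all tested probe sets. The count was not stable, and was much lower without any 1 of the 4 arrays compared. The share of all tested probe sets called was lower in those fits too.

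Among named genes AT5G04960, the pectin methylesterase, was 2.36-fold higher in msg2 mock, with signals of 8.94 and 9.07 against 7.54 and 7.99 in wild type (limma adjusted p = 0.014). The lectin AT5G35940 was 2.31-fold higher (limma adjusted p = 0.034) and AT1G14960 was 2.27-fold higher (adjusted p = 0.029). AT2G25450 was 2.16-fold lower, with 10.21 and 10.19 in msg2 against 11.38 and 11.25 in wild type (adjusted p = 0.0075). The arrays did not overlap for any of the 4. Each call was lost without wild-type mock replicate 1 and without either msg2 mock array, with adjusted p up to 0.19, 0.28, 0.37 and 0.09, and that of AT5G35940 also without wild-type mock replicate 2.

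With 24-eBL, axr2 differed from wild type for 37 members (45.1%), 18 higher and 19 lower, against 28.6% of tested probe sets (14.6% higher, 14.0% lower) and 32.7% of those with the same floor. The median difference was -0.03 over the members and 0.02 over all tested probe sets. AT2G16005 was at least 6.06-fold higher in axr2 (limma adjusted p = 1.1e-06) and AT4G11210 at least 2.50-fold higher (adjusted p = 0.00015). AT5G47950 was 1.71-fold higher (adjusted p = 0.0026). These calls held without any single array. AT1G66800 passed the test too (adjusted p = 3.9e-06), but was dim on all 4 arrays compared, and no size or direction is read from it.

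The other calls of named genes with 24-eBL in axr2 included 5 wall and secreted-protein genes. The peroxidase AT3G49960 and the Ole e 1 gene AT2G47540 had dim values in both genotypes, and no size or direction is read from their calls (limma adjusted p 0.021 and 0.019), that of AT3G49960 lost without replicate 1 of either group (up to 0.33) and that of AT2G47540 without replicate 2 of either group (up to 0.22). AT5G10130 was 2.21-fold lower (adjusted p = 0.0032, and 0.059 without axr2 24-eBL replicate 1). AT5G62340 was 1.97-fold lower (adjusted p = 0.012, and up to 0.23 without replicate 2 of either group, where the call was lost). The peroxidase AT2G39040, with 1 dim axr2 array and arrays that overlapped between genotypes, was at least 1.48-fold lower (adjusted p = 0.026), a call lost without replicate 2 of either group (up to 0.41).

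AT2G25450 was 1.95-fold lower in axr2 with 24-eBL, as in mock (limma adjusted p = 0.0028), and AT3G19390 was 1.65-fold lower (adjusted p = 0.014). Both were lost without replicate 1 of either group, with adjusted p of up to 0.077 and 0.17. AT3G59370 was at least 1.13-fold lower (adjusted p = 0.029) and AT4G13860 1.57-fold lower (adjusted p = 0.047). Those 2 were lost in 4 and 7 of 12 fits without 1 array (adjusted p up to 0.13 and 0.19), in both cases without any 1 of the 4 arrays compared.

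In msg2 with 24-eBL, 21 members (25.6%) differed from wild type, 17 higher and 4 lower, against 7.51% of tested probe sets (4.06% higher, 3.45% lower) and 8.68% of those with the same floor. The median difference was 0.26 over the members and -0.02 over all tested probe sets. AT1G66800 was at least 1.84-fold higher in msg2, with 6.64 and 7.33 against dim values of 3.36 and 3.10 in wild type (limma adjusted p = 5.4e-07). AT5G47950 was 2.37-fold higher (adjusted p = 0.00022) and AT1G14960 2.97-fold higher (adjusted p = 0.0029). Those calls held without any single array.

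AT5G23840 (2.11-fold) and AT4G22610 (1.72-fold), both of lipid-binding families, were higher in msg2 with 24-eBL, as was AT4G11210 (at least 1.83-fold), with limma adjusted p of 0.018, 0.011 and 0.010. AT5G62340 was 2.19-fold lower (adjusted p = 0.018). These 4 calls were lost without msg2 24-eBL replicate 1, and each also without 1 wild-type array, with adjusted p up to 0.25, 0.11, 0.16 and 0.22. AT5G35940 had dim values in both groups, so no size is given (adjusted p = 0.032), a call lost in 6 of 12 fits without 1 array (up to 0.22), among them each of the 4 arrays compared. Without msg2 24-eBL replicate 1 the count of members called was 12, against 2.46% of tested probe sets.

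**Figure D4:**
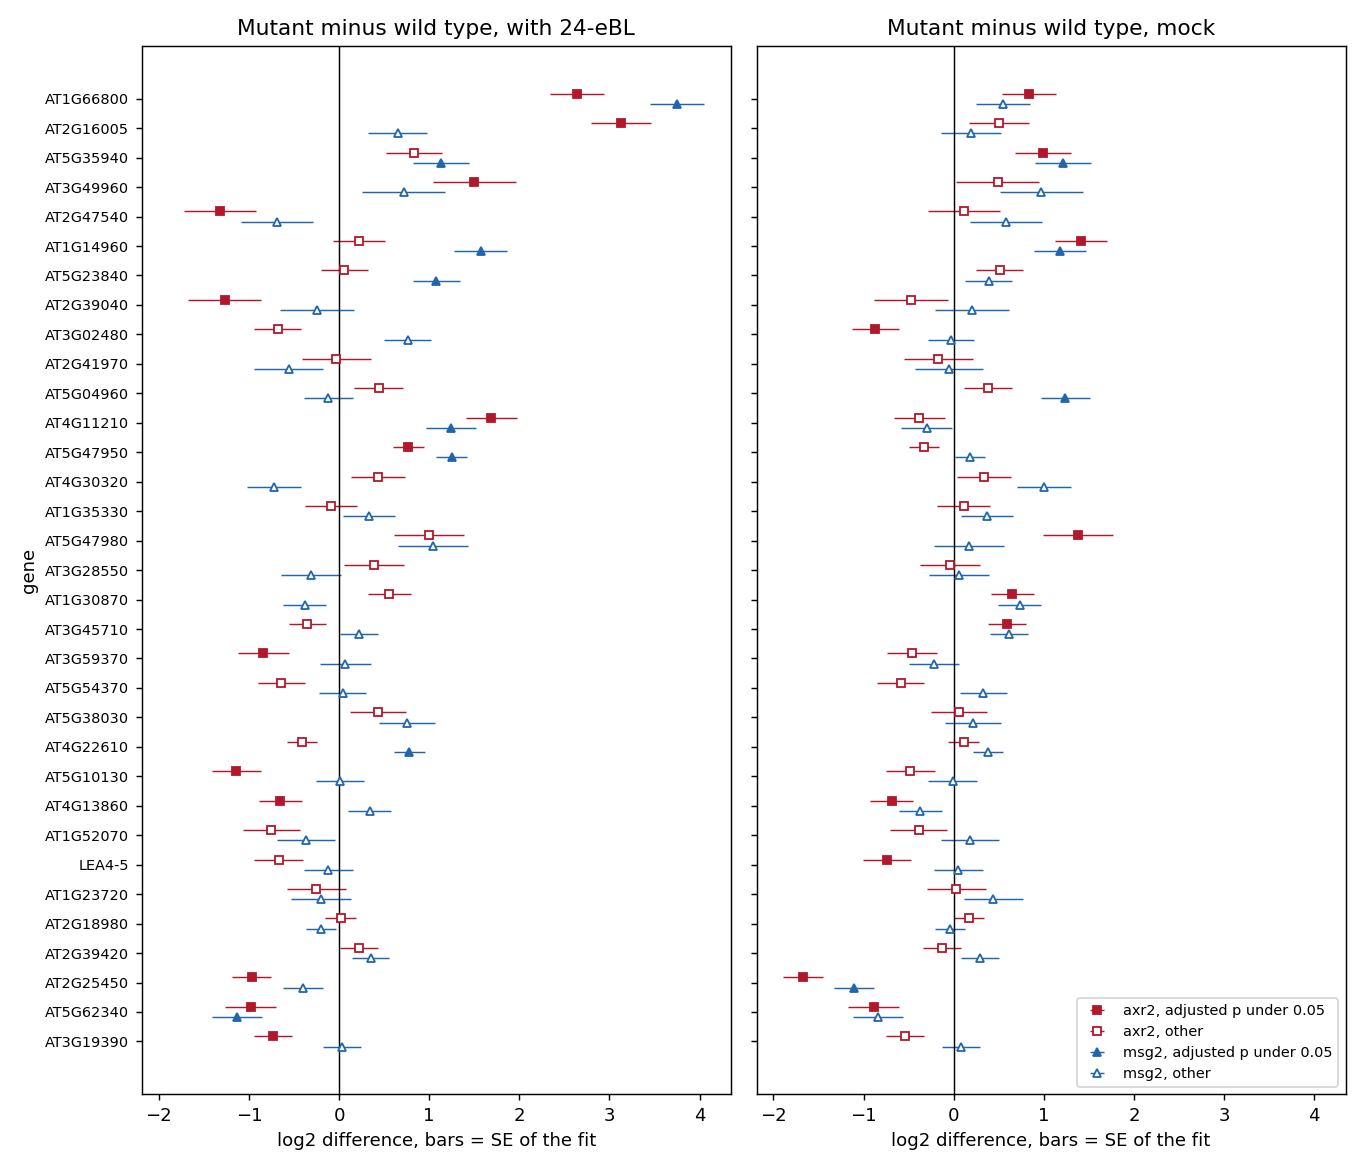
Difference from wild type in log2 signal of the 33 single-gene members, with 24-eBL (left) and in mock (right), for axr2 (squares) and msg2 (triangles), with SE of the fit as bars. Filled symbols passed an adjusted p under 0.05; AT2G16005 in axr2 stands at 3.13 with 24-eBL, and the point of AT1G66800 in msg2 at 3.75 is set by dim wild-type values, with a bound of at least 1.84-fold.

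Other genes of related pathways were looked up from lists drawn up for this work, and few had a single-gene probe set. None of 14 brassinosteroid synthesis genes, of 28 aquaporin genes or of 25 nutrient transporters was tested. Of 9 inactivation genes BAT1 was tested, and it fell 1.61-fold in wild type (limma adjusted p = 0.027, lost without any 1 of the 4 wild-type arrays, up to 0.17). Of 42 signalling genes BRL1 and BIM1 were tested, and BIM1, a bHLH partner of the BZR1 family, fell 2.01-fold in msg2 (adjusted p = 0.041, lost in 5 of 12 leave-outs, up to 0.33).

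Of 73 auxin genes IAA18, IAA20 and IAA29 were tested and 0 were called, with median responses of -0.11, 0.12 and 0.16 in axr2, msg2 and wild type. Of 36 expansin genes 15 were tested, 1 was called higher and 1 lower in axr2, 1 and 2 in msg2, and 1 and 3 in wild type, with medians of 0.04, -0.06 and 0.20. The lower calls were EXPA18 in axr2, EXPA7 and EXPA18 in msg2, and EXPA7, EXPA18 and EXPA15 in wild type. EXPA7 and EXPA18 met the thresholds of the rule, so their calls are no independent result. Of all tested probe sets 1.72%, 2.4% and 2.47% were called lower in axr2, msg2 and wild type. The ER-body gene NAI2 was 2.12-fold lower with 24-eBL in axr2 (limma adjusted p = 0.014) and 1.85-fold lower in msg2 (adjusted p = 0.035), and had a response of -0.72 in wild type that did not pass (adjusted p = 0.087). Both calls of NAI2 were lost in 3 of 12 fits without 1 array, all arrays of that mutant (adjusted p up to 0.14 and 0.38).

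The replicates were not equally placed in axr2 and in wild type, in opposite directions. In axr2, replicate 1 was above replicate 2 with 24-eBL and in mock for 46 members (56.1%), against 28.1% of tested probe sets. In msg2 it was so for 27 members (32.9%, against 24.2% of tested probe sets) and in wild type for 8 (9.76%, against 30.3%). The replicate numbers of different groups do not mark shared cultures in the labels.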

How the data were processed

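Total RNA of whole seedlings was hybridised to ATH1 arrays, 1 sample per array. The deposited values are log2 signals that the authors normalised with MAS5, per the labels and the series' design text, which names GeneSpring too. They were not normalised again. Detection calls were not used here. Of 22810 probe sets 64 array controls were left out. Of the other 22746, 13513 were paired with 1 gene, 503 with several and 8730 with none, and symbols were updated from the RefSeq table of assembly TAIR10.1. No genome coordinates are given, since the build behind the probe table is not given in the sources used here.

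The members and the gene lists were chosen with earlier results of these data known. A model with 1 mean per group was fitted to the 12 arrays in limma 3.58.1 (R 4.3.3, eBayes with intensity trend, 6 residual and 12 prior degrees of freedom, median residual SD 0.219), p was adjusted by Benjamini-Hochberg over 15025 tested probe sets, and calls were made at an adjusted p under 0.05. The background over probe sets with 3 mock means of at least 7 was added after seeing the data. The procedure was also run on simulated data with independent normal noise and few changed probe sets. That is a simpler setting than these arrays, so no support is taken from it. Genes to name were set by rule: the 20 single-gene members with the most negative mean response, those called in a mutant against wild type contrast without overlap of arrays (up to 8 a direction), the 3 probe sets nearest each side of the threshold, and called genes of the lists. Other members are named without a test. Tables were made with Python 3.11.15 and pandas 2.3.3.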

Additional observations from a re-analysis of the deposited data

Results flagged for a closer look

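BCAT4, an aminotransferase of methionine-derived glucosinolate synthesis, is not a member, but its response to 24-eBL differed between axr2 and wild type. The axr2 response minus the wild-type response was -3.33 ± 0.63 (SE) on the log2 scale (limma adjusted p = 0.0069). The gene had log2 signals of 11.20 and 11.22 with 24-eBL and 11.04 and 11.32 in mock in axr2, and 8.39 and 8.50 with 24-eBL and 6.18 and 4.00 in mock in wild type. The axr2 response was 0.03 and that of wild type 3.36. Because wild-type mock held a dim value, the rise in wild type is known only as at least 5.13-fold, and the size of the difference is not measured. In msg2 the signals were 8.49 and 8.76 with 24-eBL and 6.87 and 8.05 in mock, a response of 1.17, and the msg2 response minus the wild-type response was -2.19 (limma adjusted p = 0.22).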

How the results depend on the processing

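The number of members was 76 under quantile normalisation, 78 with arrays centred on their medians, 78 with an offset of 16, 115 at a minimum fall of 0.6, 61 at 1.0, 104 with mock means of at least 6 and 56 with at least 8, and 72 to 92 when 1 array was left out. Without the intensity trend, members called were 19 for axr2 mock (23.2% of members, against 31.1% of tested probe sets), 3 for msg2 mock (3.66% against 1.2%) and 11 for msg2 with 24-eBL (13.4% against 3.34%). For msg2 mock the count was 10 with no filter (12.2% against 1.9%) and 27 when the fit held just the 4 arrays compared (32.9% against 6.89%). Leaving out each array in turn gave 20 to 33 calls for axr2 mock, 2 to 17 for msg2 mock, 26 to 39 for axr2 with 24-eBL and 12 to 23 for msg2 with 24-eBL. The share of all tested probe sets called also changed between these fits. A lower count of members called is therefore no sign by itself that the members were less stable than other probe sets. The cause of the changes in the counts was not tested. With the replicate number as a block the counts of members called were 31, 14, 36 and 20 in the same order. The share of all tested probe sets called was lower than in the main fit for each contrast. Deviations of same-numbered arrays correlated at -0.08 to 0.07 over 15 pairs of groups. Over the members, replicate differences in the 2 treatments correlated at 0.08 in axr2, 0.4 in msg2 and -0.12 in wild type. Weak correlations cannot exclude shared cultures or batches, so whether the numbers pair the samples was not settled. All 45 calls of named genes passed under the block. Of those, 17 were lost with no filter, 22 without the trend, 9 in the fit of the arrays compared, and 103 were lost and 437 kept over the fits that left out 1 array. No call of a named gene changed direction in the alternatives run. The median differences of the response crossed 0: axr2 minus wild type ran from -0.18 to 0.02, msg2 minus wild type from -0.11 to 0.07 and axr2 minus msg2 from -0.27 to 0.05, so they have no settled sign. Raising dim values, an alternative chosen after seeing the data, gave -0.05, -0.03 and 0.02. Values near the percentile that marks dim signal limit the size of the deepest responses.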
